A study of Mus musculus with 20 samples.

Results

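The Skint family was examined here as its 10 numbered members, Skint1 to Skint10, which were taken by gene symbol from a bulk RNA-seq table of 53380 mouse genes. Each symbol matched 1 gene of the table, and all 10 members were among the 17204 genes with normalized counts of 10 or more in 3 or more libraries, which were those tested. The table held 20 libraries of 5 populations that had been sorted from dorsal epidermis by integrin-α6, Sca1, CD34 and Thy1 (CD90). Thy1hi cells (α6+Sca1+Thy1hi keratinocytes, 4 libraries) and Thy1- cells (α6+Sca1+Thy1- keratinocytes, 4 libraries) were keratinocytes of the interfollicular epidermis, HFSCs (α6+Sca1-CD34+, 4 libraries) were stem cells of the hair follicle, and DETCs (α6-Sca1lowThy1+, 5 libraries) were the dendritic T cells that live between keratinocytes. YFP+ cells (3 libraries) were Thy1hi keratinocytes that had switched on a fluorescent reporter in mice with an inducible Cre, CreERT2, driven by Thy1 regulatory sequence. The labels gave the genotype Thy1.2CreERT2-Rosa26-EYFP and no treatment for all 5 populations, with an age that rose by 1 week from sample to sample between 8 and 27 weeks, whereas the methods gave wild-type C57BL/6J mice aged 8 weeks for all but the YFP+ cells, which came from induced reporter mice. Genotype and age could therefore not be used to set libraries apart. The cell type label of the YFP+ samples reads ScaI- although their titles read ScaI_P. Mice were pooled in part of the sorts, so that p-values measure the spread between libraries, which may not be the spread between animals.

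Skint genes encode transmembrane proteins with immunoglobulin-like domains that are related to the butyrophilins, and they are expressed mainly by keratinocytes and by thymic epithelium. Skint1 is known for the selection of the γδ T cells that become DETCs: without an intact Skint1 in the thymus, cells with the typical receptor of the epidermis fail to mature. In the skin itself, Skint proteins of suprabasal keratinocytes have been linked to the resting contact between keratinocytes and DETCs and, for Skint3 and Skint9, to signalling around wounds. The question asked of these data was which sorted population held which members, and whether the members moved together.

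All 10 members lie in 1 cluster on chromosome 4 (mm10), from 111919392 to 113999503, a stretch of 2080 kb in which they are the only 10 protein-coding genes of the GENCODE annotation. From the lower coordinate the order was Skint8, Skint7, Skint1, Skint4 and Skint3 on the plus strand, then Skint9 on the minus strand, Skint2 on the plus strand, and Skint10, Skint6 and Skint5 on the minus strand. Skint6 and Skint5 were the longest genes, spanning 482.4 and 521.6 kb with 49 and 59 exon blocks, while Skint7 spanned 15.3 kb. Coding sequences were most alike in Skint8 and Skint7 (90.5% identity) and in Skint6 and Skint5 (88.4%). The methods gave single reads of 100 cycles, and windows of 100 bases were shared between members only by Skint8 and Skint7, at 2.95% and 3.49% of their windows. Reads from these windows fit both genes, and how such reads were counted was not given. Skint6 shared 63 exonic bases with Gm12823 on the opposite strand.

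The 250 bases before the RefSeq start (GRCm38.p6) are shown for 4 members, because Skint7 and Skint1 carried much of the Thy1hi signal described below, whereas Skint6 and Skint5 went together across libraries. The windows are chr4:111972677-111972926 and chr4:112006019-112006268 on the plus strand and chr4:113286974-113287223 and chr4:113999504-113999753 on the minus strand, each written 5′ to 3′ on the strand of its gene. Capitals mark TATAAA on either strand.

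Skint7: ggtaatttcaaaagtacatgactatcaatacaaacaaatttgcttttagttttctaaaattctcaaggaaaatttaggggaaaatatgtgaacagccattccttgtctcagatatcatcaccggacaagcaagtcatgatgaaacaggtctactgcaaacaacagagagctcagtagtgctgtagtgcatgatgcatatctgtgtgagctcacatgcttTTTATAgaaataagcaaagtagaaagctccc

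Skint1: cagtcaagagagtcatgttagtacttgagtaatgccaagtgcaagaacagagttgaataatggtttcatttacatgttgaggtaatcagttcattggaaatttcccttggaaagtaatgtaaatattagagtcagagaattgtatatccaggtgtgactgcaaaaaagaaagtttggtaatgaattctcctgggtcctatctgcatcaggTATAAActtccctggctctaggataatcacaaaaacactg

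Skint6: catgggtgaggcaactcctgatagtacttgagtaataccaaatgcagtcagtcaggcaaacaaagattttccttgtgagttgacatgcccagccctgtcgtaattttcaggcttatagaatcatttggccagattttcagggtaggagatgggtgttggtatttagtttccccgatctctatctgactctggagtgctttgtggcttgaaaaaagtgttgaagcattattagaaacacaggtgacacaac

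Skint5: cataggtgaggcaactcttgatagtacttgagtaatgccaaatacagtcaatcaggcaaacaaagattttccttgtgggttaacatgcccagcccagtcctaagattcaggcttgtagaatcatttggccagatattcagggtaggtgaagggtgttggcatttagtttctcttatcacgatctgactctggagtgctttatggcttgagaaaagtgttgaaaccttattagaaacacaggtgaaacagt

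The letters TATAAA were found on either strand in the windows of 5 of the 10 members, Skint8, Skint7, Skint1, Skint9 and Skint2, as against 12.4% of 32851 RefSeq windows of the same length. They began 31 bases before the start in Skint7 (first base at -31) and 40 before it in Skint1 (first base at -40). Only Skint1 had TATAAA on the strand of the gene. In Skint8, Skint7, Skint9 and Skint2 the stretch read TTTATA, which is TATAAA on the opposite strand, with first bases from -209 to -18. In Skint8 and Skint7 it lay within 72 aligned bases that were 95.8% identical, so these were not independent finds. The windows of Skint6 and Skint5 held none and were 88.8% identical over 250 aligned bases. The AP-1 letters TGANTCA, searched on both strands, were in 0 of the 10 windows and in 6.75% of all windows. The RefSeq start of Skint2 lies 56546 bases from the 5′ end of the GENCODE gene, so that its window may not be the promoter of the counted transcripts. For Skint8 that distance was 163 bases.

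Libraries held 7781256 to 12982393 reads on genes, and 13.1% to 41.5% of these fell on the ribosomal RNA gene Rn45s. Thy1 itself followed the sort in Thy1hi cells, Thy1- cells and DETCs, with normalized counts of 511 to 775, 63.1 to 77.8 and 1163 to 2260. YFP+ libraries 1, 2 and 3 had 694, 468 and 1546. Of these, library 2 lay below all Thy1hi libraries and library 3 within the range of the DETCs. All 7 T cell markers were higher in DETCs than in each keratinocyte population compared with them, and all 6 hair follicle stem cell markers were higher in HFSCs than in Thy1hi cells. DETC libraries were not free of keratinocyte transcripts: the 7 basal markers summed to 12376 to 58632 in DETCs as against 89525 to 157825 in Thy1- cells. Among the libraries, 3 are described here for their member sums. The check of outlying values given below, which did not cover the YFP+ libraries, flagged only DETC library a. DETC library a had a member sum of 361, as against 1094 to 1204 in the other 4 DETC libraries, and also the lowest sums of basal (12376) and suprabasal markers (4938). HFSC library 4 had a member sum of 3583, as against 1301 to 1905 in the other HFSC libraries, with 13.1% of its reads on Rn45s. YFP+ library 3 had a member sum of 878, as against 2102 and 2646 in the other YFP+ libraries. Comparisons of the members between populations that include these libraries are given with and without them. Levels per kb, ratios to marker levels, correlations, marker medians and nearest genes are given with all libraries only.

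Depth differed between members. Skint1 was counted with 36 to 606 reads per library and Skint6 with 27 to 1032, whereas Skint2 had 0 to 54 reads with a median of 10.5. Differences in Skint2 are accordingly the least precise of the family. Values are normalized counts, which are reads divided by 1 size factor per library. Only for the order of levels between members were they also divided by exonic length, and they are then called normalized counts per kb.

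On the scale per kb, Skint1, the selecting member, had the highest mean level in Thy1hi cells (93.8 ± 14.2 normalized counts per kb, SD, n = 4), in YFP+ cells (99.7 ± 10.9, n = 3), in Thy1- cells (138.7 ± 16.8, n = 4) and in DETCs (55.8 ± 24.4, n = 5). In HFSCs Skint6 was nominally higher, at 98.6 ± 62.0 as against 93.9 ± 29.9 for Skint1 (n = 4), with widely overlapping libraries. Skint2 was the lowest member in all 5 populations, between 2.25 and 10.5 normalized counts per kb on average. In Thy1hi cells Skint1 did not overlap with the next member, Skint7, which ranged from 38.7 to 44.6 per kb. In Thy1- cells Skint1 (123.1 to 158.6) lay just above Skint3 (48.1 to 121.6). Of the 9 pairs of neighbours in the order of levels, 2 were apart in Thy1hi cells, 2 in Thy1- cells and 1 in HFSCs, with 0 in DETCs or YFP+ cells, so that most of the order between members was within the spread of the libraries. In HFSCs the pair that was apart was Skint3 above Skint7: 6 members, Skint6, Skint1, Skint9, Skint4, Skint5 and Skint3, lay between 70.3 and 98.6 per kb on average, and the other 4 between 9.96 and 28.2.

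**Figure D1:**
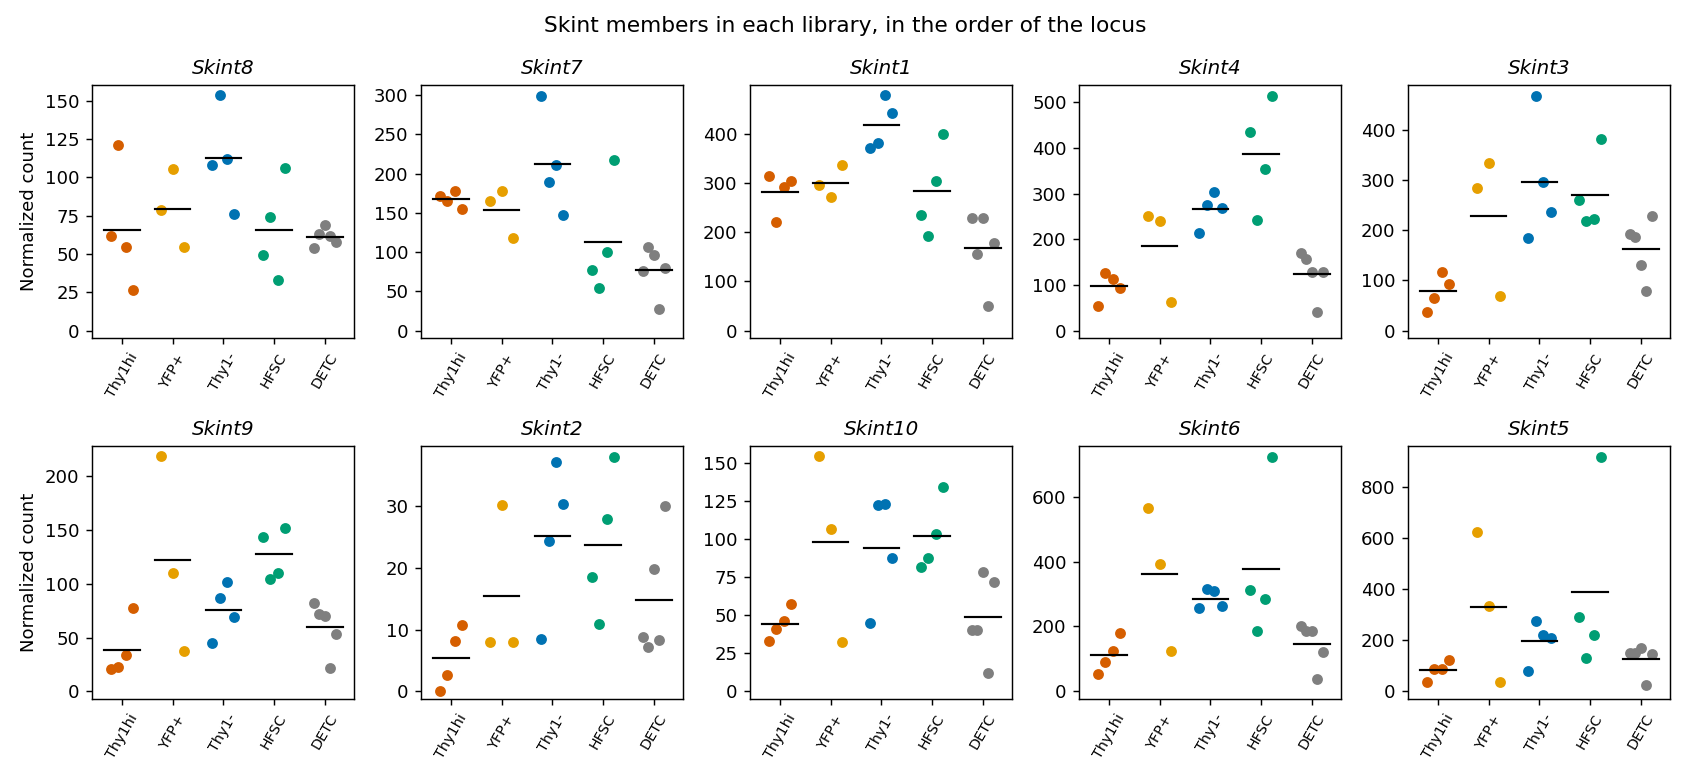
Normalized counts of the 10 Skint members (y axes, linear, each with its own scale) in every library of 5 populations (x axes), with panels in the order of the locus. Each point is 1 library and each line is the mean of a population. Skint4 and Skint3 are low in all 4 Thy1hi libraries, at most 125 and 116, whereas Skint7 is at 154 to 178 there.

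The 3 members at the start of the cluster were those with the smallest differences between Thy1hi cells and HFSCs. Skint1 had normalized counts of 315, 220, 293 and 304 in Thy1hi cells, 371, 382, 478 and 442 in Thy1- cells, and 234, 193, 305 and 399 in HFSCs. The Thy1hi libraries all lay below the Thy1- libraries, and Thy1hi cells and HFSCs overlapped almost fully. Skint1 was 1.48-fold lower in Thy1hi than in Thy1- cells (log2 difference -0.57 ± 0.34 SE, limma adjusted p = 0.857). Its difference between HFSCs and Thy1hi cells was -0.04 ± 0.34 (log2, SE, limma adjusted p = 0.954), and the sign of so small a difference turned with the test and with single libraries.

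Skint7, the close relative of Skint8, stood at 171, 165, 178 and 154 in Thy1hi cells, which was the smallest relative spread of any member in that population (SD 6.05% of the mean). It had 299, 190, 211 and 148 in Thy1- cells and 77.3, 54.3, 100 and 217 in HFSCs. The HFSC libraries were lower apart from library 4, which was above all Thy1hi libraries. The difference between HFSCs and Thy1hi cells was -0.76 ± 0.38 (log2, SE, limma adjusted p = 0.198), and without HFSC library 4 it became -1.14 with an adjusted p of 0.0414. Skint8 ranged from 26.2 to 121 in Thy1hi cells, from 76.2 to 154 in Thy1- cells and from 33.1 to 106 in HFSCs. All 3 ranges overlapped.

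The other 7 members had lower values in Thy1hi cells than in Thy1- cells or HFSCs. Skint4 had normalized counts of 54.1, 125, 114 and 94.1 in Thy1hi cells, 214, 274, 304 and 269 in Thy1- cells, and 435, 242, 354 and 514 in HFSCs. Skint3 had 36.4, 65.9, 116 and 93.1 in Thy1hi cells, 185, 467, 297 and 237 in Thy1- cells, and 260, 217, 221 and 382 in HFSCs. Skint6 had 54.1, 89.6, 124 and 180 in Thy1hi cells, 257, 315, 309 and 262 in Thy1- cells, and 313, 187, 285 and 723 in HFSCs. In all 3 members, every Thy1hi library was below every Thy1- library and every HFSC library. Skint5, the neighbour and closest relative of Skint6, reached 37.5 to 122 in Thy1hi cells, 80.3 to 274 in Thy1- cells and 130 to 918 in HFSCs. Skint9 reached 21.0 to 77.6, 45.0 to 102 and 104 to 151 in the same order, and Skint10 reached 33.1 to 57.2, 45.0 to 123 and 82.0 to 135. Skint2 was listed at 0 in Thy1hi library 1 and reached 10.7 in the highest Thy1hi library, as against 8.51 to 37.1 in Thy1- cells and 10.9 to 37.8 in HFSCs.

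Between the keratinocyte populations that differ in Thy1, the direction was the same for the whole family, and the number of members called depended on the fit: 0 in limma over all 20 libraries, 2 in DESeq2 and 8 in limma with the replicate pairs as a block. All 10 members had a lower value in Thy1hi than in Thy1- cells, with a median log2 difference of -1.15 as against -0.02 over all genes tested. The differences ran from -0.30 in Skint7 to -2.38 in Skint2, and with a library left out from -0.45 to -0.11 in Skint7 and from -2.85 to -1.67 in Skint2. The value of -1.67 was that without Thy1hi library 1, in which Skint2 had 0 reads. In bulk samples, fewer cells of a type and less RNA per cell cannot be told apart. With limma, 0 of the 10 members had an adjusted p under 0.05, in a comparison that called 0.337% of all genes tested. The lowest adjusted p belonged to Skint3 (log2 difference -1.95 ± 0.45 SE, a fold of 3.87, limma adjusted p = 0.0674), followed by Skint4 (-1.50 ± 0.43, a fold of 2.83, limma adjusted p = 0.205) and Skint2 (-2.38 ± 0.70, limma adjusted p = 0.218). At an unadjusted p under 0.05 limma had 6 of the 10 members, all lower in Thy1hi cells. The share of all genes at that looser threshold was not counted, so this count has no background beside it. edgeR on the recovered reads also called 0 at an adjusted p under 0.05, and DESeq2 called 2, Skint3 and Skint4, among 1.55% of the genes it tested. In 4 members, Skint1, Skint4, Skint3 and Skint6, the Thy1hi libraries did not overlap with the Thy1- libraries, and 3.17% of all genes tested did so in this direction. The exact permutation test of these members gave p = 0.0286 each (two-sided), which is the smallest value that 4 against 4 libraries allow.

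Same-numbered Thy1hi and Thy1- libraries departed from the means of their populations together (r of 0.293 to 0.716 over genes in the 4 pairs), so the pairing was also fitted. Thy1hi library 2 and Thy1- library 1, which differ in number, had an r of 0.514, above the 0.293 and 0.301 of same-numbered libraries 1 and 3. Whether the numbers mark shared sorts was not tested. With only these populations in the limma fit and the replicate number as a block, 8 of the 10 members were called, all lower in Thy1hi cells, as against 3.19% of all genes tested called lower in that fit. Those called were Skint1, Skint2, Skint3, Skint4, Skint5, Skint6, Skint8 and Skint10. The strongest was Skint4, with a difference of -1.50 ± 0.16 (log2, SE, limma adjusted p = 0.000791), and Skint3 had -1.95 ± 0.24 (limma adjusted p = 0.00154). Without the block, the fit of only these populations called 1, Skint4 (limma adjusted p = 0.0389), and 0.552% of all genes tested in either direction. In the fit with the block, Skint7 (-0.30 ± 0.16, limma adjusted p = 0.33) and Skint9 (-1.09 ± 0.32, limma adjusted p = 0.0735) were not called.

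HFSCs were compared with Thy1hi cells to set the stem cells of the follicle beside the Thy1-rich keratinocytes. Here 5 of the 10 members, Skint4, Skint3, Skint9, Skint2 and Skint6, were called higher in HFSCs and none lower, whereas 6.86% of all genes tested were called higher. Skint4 was 4.0-fold higher (log2 difference 2.0 ± 0.43 SE, limma adjusted p = 0.00347), Skint9 3.67-fold (1.88 ± 0.49, limma adjusted p = 0.0128) and Skint3 3.64-fold (1.86 ± 0.45, limma adjusted p = 0.00763). Skint6 was 3.23-fold higher (1.69 ± 0.52, limma adjusted p = 0.0348). Skint2 was 5.08-fold higher on the log2(value + 1) scale (2.35 ± 0.70, limma adjusted p = 0.0298), from the low counts given above. Skint5 (1.94 ± 0.76, limma adjusted p = 0.0983) and Skint10 (1.18 ± 0.49, limma adjusted p = 0.122) were not called. The libraries of 7 members, these 5 with Skint10 and Skint5, did not overlap, and 9.81% of all genes tested did so with the HFSCs higher.

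Single libraries mattered to that count. Without HFSC library 4 there were 3 members called higher, Skint3, Skint4 and Skint9, and 1 lower, Skint7, and the median over the members was 1.36 as against 1.78. The number called was 3 without HFSC library 3, 2 without Thy1hi library 1 (Skint3 and Skint4) and 3 without Thy1hi library 2. The share of all genes tested called in either direction also fell, from 13.4% with all libraries to 11.5% without HFSC library 4. It was 11.3% without HFSC library 3, 9% without Thy1hi library 1 and 9.88% without Thy1hi library 2. Skint4 and Skint3 were called in each of these fits. In the plot of differences between populations, the 7 members from Skint4 to Skint5 lie on the right in this comparison, with the first 3 members at 0.06 or less.

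**Figure D2:**
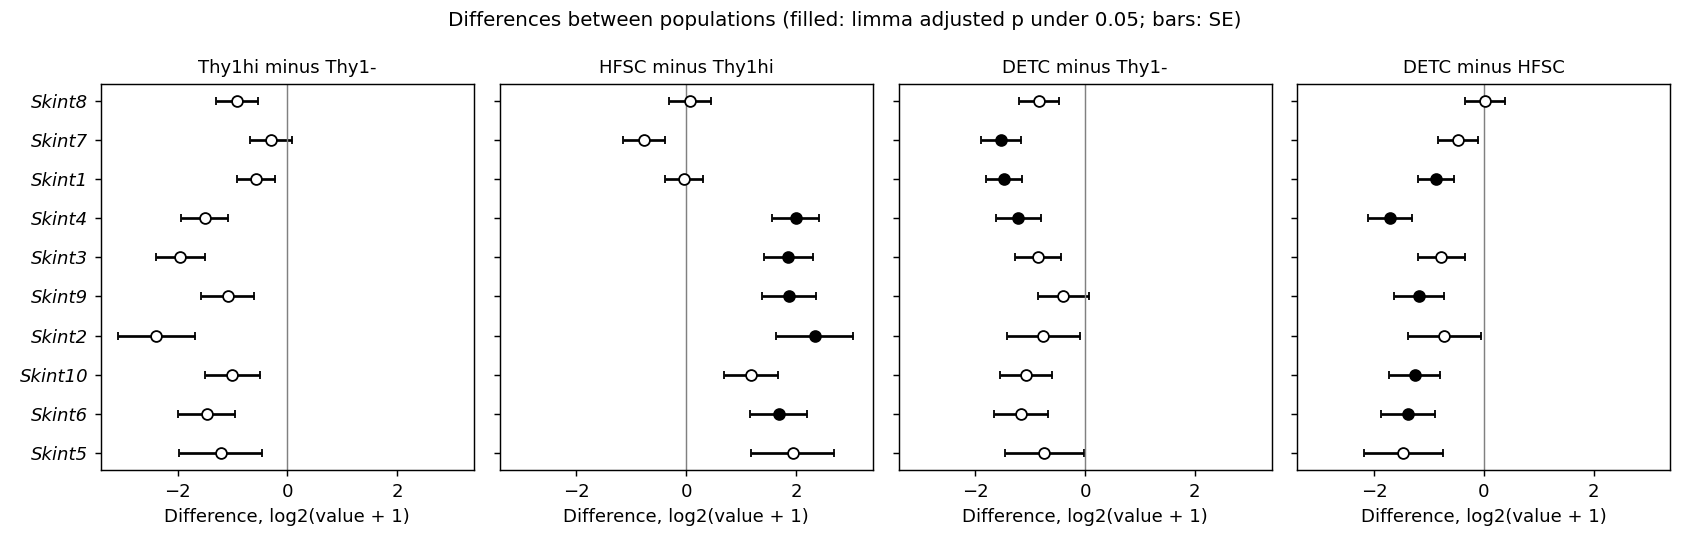
Differences between populations on the log2(value + 1) scale (x axes) for the 10 members in the order of the locus (y axis). Points are limma estimates, bars their SE, and filled points have an adjusted p under 0.05. All 10 points lie left of 0 for Thy1hi minus Thy1- cells, and the points of 7 members lie at 1.18 or more for HFSCs minus Thy1hi cells.

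HFSCs and Thy1- cells had closer levels. The median log2 difference over the members was 0.07 as against -0.04 over all genes tested, with 5 members above 0 and 5 below, of which Skint10 turned to -0.03 after rescaling to the same total and Skint2 to 0.05 after quantile normalization. Single libraries also changed this split, to 7 above and 3 below without HFSC library 2 and to 4 above and 6 below without HFSC library 4. Of the 10 members, 0 were called by limma, edgeR or DESeq2, and limma called 6.08% of all genes tested. At an unadjusted p under 0.05 limma had 2 members, both lower in HFSCs, and the share of all genes at that threshold was not counted. The extremes were Skint7 (-1.06 ± 0.38, limma adjusted p = 0.103) and Skint9 (0.79 ± 0.49, limma adjusted p = 0.324). Without HFSC library 4, Skint7 was called lower (-1.44, limma adjusted p = 0.0204) and the median over the members was -0.21. That fit called 5.89% of all genes tested in either direction.

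The make-up of the family was looked at beside its sum. After these values had been seen, Skint8, Skint7 and Skint1 were summed and set against the other 7 members, as a description with no test. The 3 genes together had normalized counts of 548, 506, 525 and 484 in the Thy1hi libraries, where the other 7 had 236, 433, 528 and 635. The first sum was nearly level and the second varied. In Thy1- cells the sum of the 3 ran from 666 to 801, in HFSCs from 322 to 722 and in DETCs from 139 to 393. As a share of the member sum, the 3 genes made up 69.9%, 53.9%, 49.8% and 43.2% in Thy1hi cells and 48.3%, 31.7%, 36.5% and 36.4% in Thy1- cells. The share was 19.0% to 24.9% in HFSCs, including library 4 with its high sum (20.2%), and 28.8% to 38.4% in DETCs. HFSCs lay below, and did not overlap with, each of the other populations but the YFP+ cells, and Thy1hi and Thy1- cells overlapped through Thy1- library 1.

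**Figure D3:**
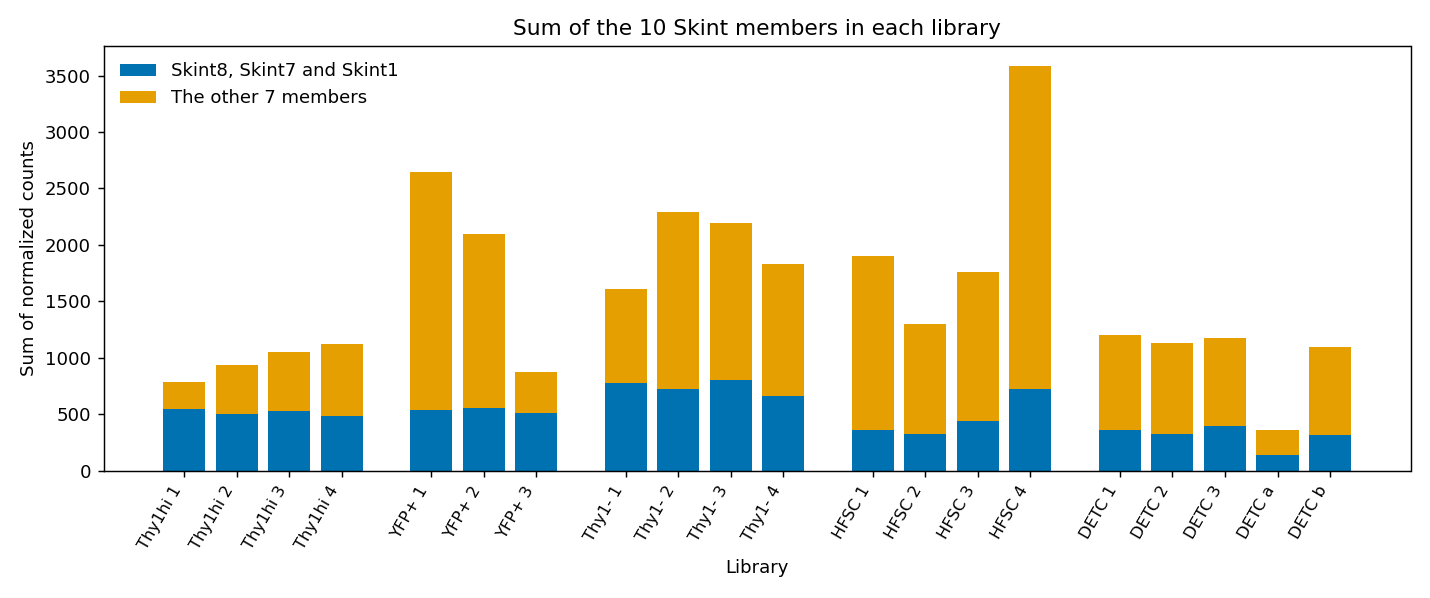
Sum of the normalized counts of the 10 members (y axis) in each library (x axis), divided into Skint8, Skint7 and Skint1 (blue) and the other 7 members (orange). The blue part lies between 484 and 554 in all Thy1hi and YFP+ libraries, where the orange part runs from 236 to 2107.

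Across the 20 libraries the 7 members from Skint4 to Skint5 went together, whereas of the first 3 only Skint7 and Skint1 did so. Between pairs of the 7 members from Skint4 to Skint5, Pearson's r of log2(value + 1) was 0.628 to 0.922 (21 pairs, median 0.836), with the highest value in Skint6 and Skint5, the relatives whose upstream windows are shown above. Between 1 of these 7 and 1 of the first 3 members it was 0.0171 to 0.638 (21 pairs, median 0.311). Within the first 3, Skint7 and Skint1 had an r of 0.835, whereas Skint8 and Skint7, with the most similar coding sequences, had 0.419. Skint8 and Skint1 had 0.225, which was below the 0.638 of Skint1 and Skint10, so the first 3 members were not a block. These are descriptions: the libraries share populations and sorts, and neighbours on the chromosome are also relatives in sequence.

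**Figure D4:**
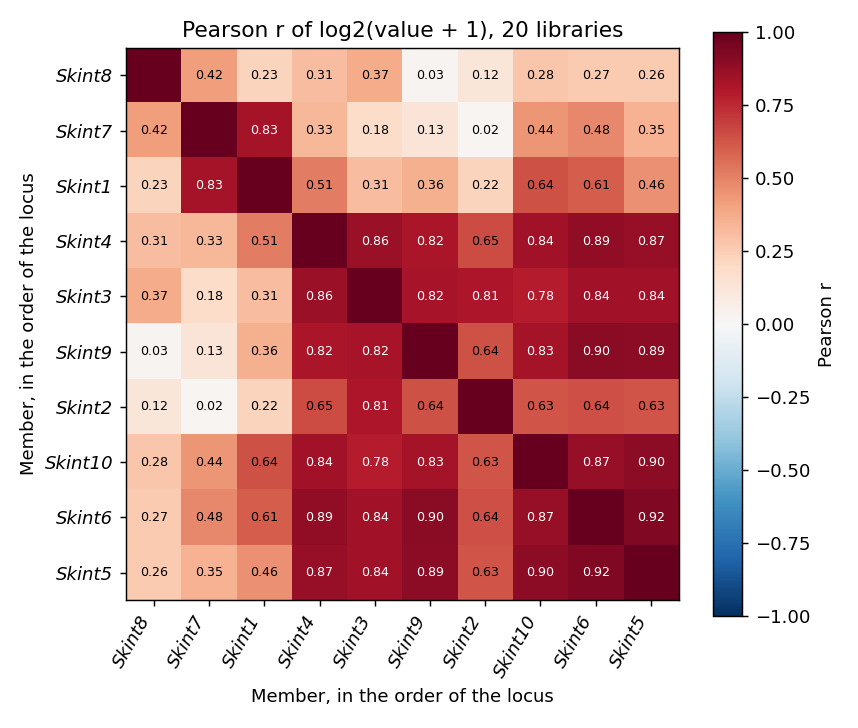
Pearson's r of log2(value + 1) over 20 libraries for each pair of members, with both axes in the order of the locus and colour giving r. The block from Skint4 to Skint5 has values of 0.628 to 0.922, and Skint8 reaches at most 0.419 with any other member.

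DETC libraries also held Skint transcripts. Skint1 had 229, 156, 228, 49.4 and 178 in DETC libraries 1, 2, 3, a and b, and Skint7 had 76.3, 107, 95.7, 27.4 and 79.3. Both were lowest in library a, which was the lowest DETC library in 8 of the 10 members, all but Skint8 and Skint2. Against Thy1- cells all 10 members were lower, with a median log2 difference of -0.97 as against -0.09 over all genes tested. Called lower were 3 of the 10 members, as against 15.2% of all genes tested: Skint1 (2.79-fold, log2 difference -1.48 ± 0.32 SE, limma adjusted p = 0.0013), Skint7 (2.89-fold, -1.53 ± 0.36, limma adjusted p = 0.00248) and Skint4 (2.32-fold, -1.22 ± 0.41, limma adjusted p = 0.0254). The smallest difference was that of Skint9 (-0.40 ± 0.46, limma adjusted p = 0.556). In 5 members the libraries did not overlap, and 12.7% of all genes tested did so with the DETCs lower. Without DETC library a, Skint1 (-1.09) and Skint7 (-1.20) were the 2 members called, and the median over the members was -0.70. That fit called 28.5% of all genes tested in either direction, as against 34.1% with all libraries.

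Against HFSCs, 5 members were called lower in DETCs, as against 18.5% of all genes tested. These were Skint4 (3.28-fold, log2 difference -1.71 ± 0.41 SE, limma adjusted p = 0.00219), Skint6 (-1.39 ± 0.49, limma adjusted p = 0.0296), Skint10 (-1.26 ± 0.47, limma adjusted p = 0.037), Skint1 (-0.87 ± 0.32, limma adjusted p = 0.0376) and Skint9 (-1.18 ± 0.46, limma adjusted p = 0.0468). The libraries of 3 members, Skint4, Skint9 and Skint10, did not overlap, and 13.8% of all genes tested did so with the DETCs lower. This count leaned on libraries at both ends: 1 member, Skint4, was called without DETC library a and again without HFSC library 4, with medians over the members of -0.72 and -0.81 as against -1.03 with all libraries. A fit of only these populations called 2, Skint4 and Skint9, as against 33.1% of all genes tested in either direction. With the replicate number as a block added to it, 4 were called, as against 42.1% of all genes tested in either direction. That fit leaves out DETC libraries a and b and also HFSC library 4, which has no same-numbered DETC library. In that fit Skint1 (-0.25, limma adjusted p = 0.195) and Skint6 (-0.42, limma adjusted p = 0.0796) were not called and Skint3 was (-0.47, limma adjusted p = 0.0396). The count was 2 without HFSC library 3, and 3 without HFSC library 1, HFSC library 2 or DETC library 2. In this order these fits called 34.9%, 34.6%, 37.9% and 37.2% of all genes tested in either direction, as against 39.7% with all libraries. The share was 33.8% without DETC library a and 40.3% without HFSC library 4.

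Against Thy1hi cells, 3 members were called, 1 higher and 2 lower in DETCs, as against 36.6% of all genes tested in either direction. Skint7 was 2.35-fold lower (log2 difference -1.24 ± 0.36 SE, limma adjusted p = 0.0103) and Skint1 1.88-fold lower (-0.91 ± 0.32, limma adjusted p = 0.032). Skint3 was 2.13-fold higher in DETCs (1.09 ± 0.42, limma adjusted p = 0.0498), next to the threshold. Skint3 was not called without DETC library 1, 2, 3 or b or without Thy1hi library 1, 2 or 4 (limma adjusted p of 0.0519 to 0.205), nor with a pseudocount of 0.1 or 10, without a filter, after rescaling to the same total or quantile normalization, with edgeR or in the deposited row order. Without DETC library a, Skint3 (1.33, limma adjusted p = 0.019) and Skint7 (-0.90, limma adjusted p = 0.0276) were called, and without Thy1hi library 1 the count was 1. Those fits called 32.7% and 31.8% of all genes tested in either direction. The 3 DETC comparisons share the DETC libraries and are not independent of each other.

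The level of the members in DETCs was also set beside that of keratinocyte markers, as the ratio of population means. Relative to Thy1- cells, DETCs held a median of 52.9% of the level of the 10 members (36.4% to 79.2%), 35.2% of the level of 7 basal keratinocyte markers (33.6% to 42.0%) and 62.2% of that of 12 suprabasal markers (41.5% to 107%). Relative to HFSCs the medians were 53.6%, 31.6% and 56.7%. In DETC library a, the sums of the members, of the basal and of the suprabasal markers were each the lowest of the DETC libraries. The part of keratinocyte RNA in the Skint values of DETC libraries was not tested.

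YFP+ cells were compared with Thy1hi cells, from whose gate they had been sorted. In their member sums, 1 of the 3 libraries was close to Thy1hi cells and the other 2 were not: the 7 members from Skint4 to Skint5 summed to 2107, 1547 and 370 in YFP+ libraries 1, 2 and 3, and the first 3 members to 538, 554 and 508. In Thy1 itself YFP+ library 3, at 1546, lay above all Thy1hi libraries. Against Thy1hi cells the median log2 difference was 1.12, with 9 of 10 members above 0, as against -0.04 over all genes tested. The members ran from -0.14 ± 0.41 in Skint7 to 1.61 ± 0.76 in Skint2 (log2, SE), and Skint9 had 1.51 ± 0.53. None of the 10 members was called, with adjusted p from 0.381 to 0.96 in limma, and 0.0116% of all genes tested were called. At an unadjusted p under 0.05 limma had 4 members, all higher in YFP+ cells, and the share of all genes at that threshold was not counted. Neither edgeR nor DESeq2 called any member after adjustment. Without YFP+ library 3 the median was 1.73, all 10 members were above 0, Skint9 had 2.18 and Skint2 1.92 (log2), and 0 were called. That fit called 0.00581% of all genes tested. Skint1 had 295, 271 and 336 in YFP+ cells and differed from Thy1hi cells by 0.10 ± 0.37. Against Thy1- cells, 0 of 10 members were called by limma, edgeR or DESeq2, 0 had an unadjusted limma p under 0.05, and limma called 0.761% of all genes tested. The median log2 difference there was -0.46, and 0.02 without YFP+ library 3.

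Markers of keratinocyte layers moved beside the members. The 12 suprabasal markers, among them the keratins Krt1 and Krt10 and the envelope proteins involucrin (Ivl) and loricrin (Lor), summed to 12879 to 34617 in Thy1hi cells, 32743 to 48377 in Thy1- cells, 29188 to 57965 in HFSCs, 22010 to 70390 in YFP+ cells and 4938 to 30506 in DETCs, and none of them was at 0 in any library. Their median log2 difference was -1.01 between Thy1hi and Thy1- cells, 1.13 between HFSCs and Thy1hi cells and 1.16 between YFP+ and Thy1hi cells, beside -1.15, 1.78 and 1.12 for the members. Of the 12, limma called 0 between Thy1hi and Thy1- cells (6 at an unadjusted p under 0.05), and 1 higher (Sbsn) and 1 lower (Tgm3) in HFSCs against Thy1hi cells. The 7 basal markers, among them Krt5 and Krt14, had medians of 0.81 between Thy1hi and Thy1- cells and -0.66 between HFSCs and Thy1hi cells. Of these 7, limma called 0 in the first comparison (4 at an unadjusted p under 0.05) and 2, Krt14 and Itga6, lower in HFSCs in the second, whereas Krt15 had a difference of 1.01 there (limma adjusted p = 0.16). HFSC library 4 was an exception, with the highest member sum of all libraries (3583) and the lowest suprabasal sum among HFSCs (29188). Markers of other cells of the skin were also present. The 4 Langerhans cell markers summed to 433 to 1082 in Thy1hi cells, 841 to 1703 in Thy1- cells and 60.3 to 4263 in HFSCs, with HFSC library 4 the lowest. The 4 fibroblast markers summed to 178 to 1881 in Thy1hi cells, as against 121 to 202 in Thy1- cells, and the 4 melanocyte markers to 24.3 to 272 over these populations. The part of suprabasal or other RNA in the differences of the members was not tested.

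**Figure D5:**
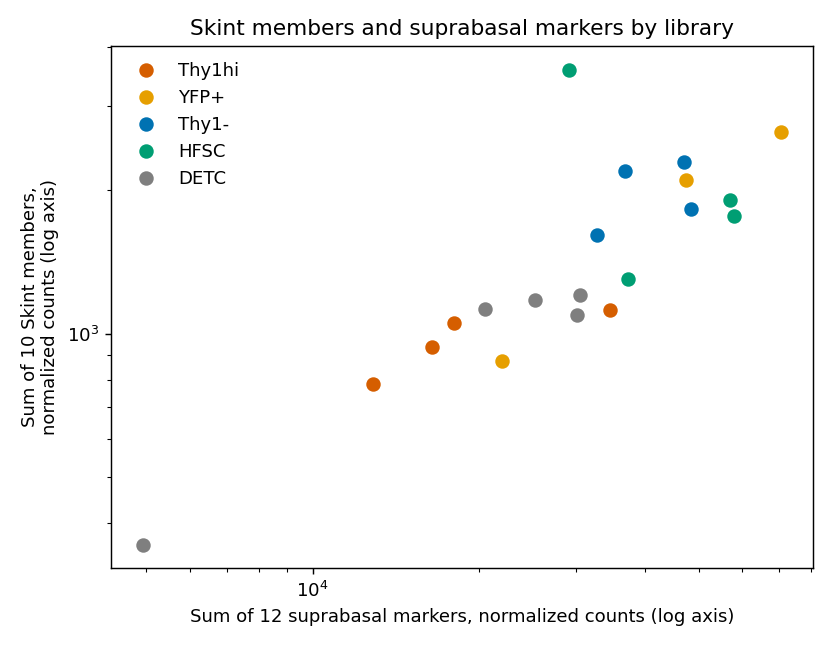
Sum of the 10 members (y axis, log scale) against the sum of 12 suprabasal keratinocyte markers (x axis, log scale), both in normalized counts, with 1 point per library and colour for the population. DETC library a is lowest on both axes (361 and 4938), and HFSC library 4 has the highest member sum (3583) at a suprabasal sum of 29188.

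The 5 genes whose log2 values followed the mean of the members most closely over the 20 libraries were Ppfia3, a scaffold protein of the liprin family (Pearson's r = 0.94), Ankrd35 (0.936), Krt78, a type II keratin (0.927), Nlrp1b, an inflammasome sensor (0.921), and Ano9 of the anoctamin family (0.914). They were chosen for that likeness, so their levels are given as a description. Krt78 averaged 221 in Thy1hi cells, 752 in YFP+ cells, 585 in Thy1- cells, and then 678 in HFSCs and 358 in DETCs, and Ankrd35 averaged 444, 943, 932, 853 and 436 in the same order. All 5 had a lower mean in Thy1hi cells than in Thy1- cells and in HFSCs.

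Relatives outside the numbered members were also looked at. Skint11, which follows Skint5 on the chromosome, averaged 53.2 ± 13.6 (SD, n = 4) in Thy1hi cells, 63.7 in Thy1- cells, as against 64.4 for HFSCs and 30.5 for DETCs, with a log2 difference of -0.25 ± 0.59 (SE, limma adjusted p = 0.999) between Thy1hi and Thy1- cells. The comparisons with DETCs gave -1.38 ± 0.56 (SE, limma adjusted p = 0.0615) for DETCs minus Thy1- cells and -1.40 ± 0.56 (SE, limma adjusted p = 0.051) for DETCs minus HFSCs. Of 11 listed butyrophilin-related genes only Skint11, Btnl10 and Ermap passed the filter, and limma called none of these 3 in any of the 8 comparisons, with 1 at an unadjusted p under 0.05 in 3 of them. Btnl10 averaged 10.9 and Ermap 12.5 in Thy1hi cells.

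Other genes through which keratinocytes and DETCs meet were set beside the members. On the DETC side, 12 receptor symbols were listed, 11 were found and 10 were tested, as Ccr10 (mean of 1.67 in DETCs) did not pass the filter. The 10 tested, among them Trdc and Tcrg-V5 of the γδ T cell receptor, Klrk1 (NKG2D) and Jaml, were higher in DETCs than in Thy1hi cells, Thy1- cells and HFSCs, with 10 of 10 called in each. Of all genes tested, limma called 36.6%, 34.1% and 39.7% in either direction. Tcrg-V5 reached at most 10.5 outside DETCs and passed the filter through its DETC counts (440 to 750). The list was made of DETC genes, so its count is a description. On the keratinocyte side, 8 of 9 listed genes were tested. Cxadr, which encodes the ligand of JAML, averaged 2413 in Thy1hi cells and 3058 in Thy1- cells, as against 1654 for HFSCs and 1241 for DETCs, and H60c, a ligand of NKG2D, averaged 157, 113, 90.6 and 40.7 in that order. Of these 8 genes, 6 were called lower in DETCs than in Thy1- cells, among them Cxadr (-1.36 ± 0.25, limma adjusted p = 0.00021) and Ccl27a (-2.57 ± 0.35, limma adjusted p = 7.15e-06). Of all genes tested, 15.2% were called lower there. Between Thy1hi and Thy1- cells limma called 0 of the 8, with 1 at an unadjusted p under 0.05, and their median log2 difference was -0.28, beside -1.15 for the Skint members.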

How the data were processed

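Per the labels and the study's methods, STAR (alignment to mm10), featureCounts (reads per gene) and DESeq2 (normalization) were used by the authors, who deposited 1 table of this signal, normalized counts rounded to 2 decimals, for 53380 genes and 20 libraries. All values of each library, multiplied by its size factor (0.729 to 1.43), gave whole reads within rounding, and 0 library columns were left unused. Library kits and sequencing runs were not given per library, so that batches could not be set apart. The values of 3212 genes of Thy1- library 4 stood in other rows and were put back, which raised their correlation with the other Thy1- libraries from 0.0354 to 0.936. None of the Skint members was among them. The columns of 2 DETC libraries carried numbers that match no sample title, and these are named a and b.

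The members and the gene lists were chosen with earlier results of these data known. Genes that reached 10 normalized counts in 3 or more libraries (17204) were fitted with limma on log2(value + 1), with 1 mean per population over all 20 libraries and no covariate. Each of 8 comparisons was tested two-sided, with Benjamini-Hochberg adjustment over all genes tested and 0.05 as the threshold for a call. Counts at an unadjusted p, of members or of listed genes, have no share of all genes beside them and are descriptions. Fold changes are on the log2(value + 1) scale, which understates those of low genes. Alternatives were pseudocounts of 0.1 and 10, no filter or a minimum mean of 50, quantile normalization, scaling to equal totals, edgeR (quasi-likelihood) and DESeq2 on the recovered reads, only the populations compared, the deposited row order, a replicate block (in a fit of only the populations compared), and each library left out in turn. Single members were also given an exact permutation test on log2(value + 1). The scripts were tested on simulated data.

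Replicate numbers were checked by correlating deviations from the population means. Same-numbered libraries went together in Thy1hi and Thy1- cells (r of 0.293 to 0.716, 4 pairs) and in DETCs and HFSCs (0.17 to 0.333, 3 pairs), from the data only, and not in the other 6 comparisons. Libraries of different number reached 0.514 in the first (Thy1hi library 2 with Thy1- library 1) and 0.371 in the second (DETC library 1 with HFSC library 3). The numbers are therefore not shown to mark shared sorts. A library without a same-numbered partner does not bear on the difference in fits with the block. This holds for DETC libraries a and b, which have no number. It also holds for library 4 of the populations compared with DETCs or YFP+ cells.

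The genes named are the 10 members, the listed cell type markers, butyrophilin relatives, ligands and receptors, and the 5 genes of highest Pearson's r with the mean of the members. Gene models were those of GENCODE vM21, which held 50604 of the 53380 identifiers. Upstream windows were from RefSeq (GRCm38.p6), with a match for 10 of 10 members. Tools were R 4.3.3, limma 3.58.1, edgeR 4.0.16, DESeq2 1.42.0, Python 3.11.15, pandas 2.3.3, Biopython 1.88 and matplotlib 3.10.9.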

Additional observations from a re-analysis of the deposited data

Results flagged for a closer look

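Values that lay far from the other libraries of their group were looked for in 48 groups of 4 or 5 libraries (each member, the member sum and the share of Skint8, Skint7 and Skint1), by the gap to the nearest library relative to the whole range. About 1 in 20 groups would stand out by chance. The 2 values found both belonged to DETC library a. Skint5 had 23.3 normalized counts there, as against 148 to 169 in the other DETC libraries. The sum of the members was 361 there, as against 1094 to 1204. The same library had 12376 for the sum of basal keratinocyte markers, as against 42181 to 58632 in the other DETC libraries.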

How the results depend on the processing

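The count of Skint members called was recomputed under every alternative. DETCs against Thy1hi cells had 3 members called, with 0 without a filter, 1 with edgeR and 1 to 3 with a library left out. DETCs against Thy1- cells had 3, with 6 after quantile normalization, where 38.5% of all genes tested were called in either direction. DETCs against HFSCs had 5, with 1 without a filter, 1 after rescaling to the same total, 3 with edgeR, 2 with only these populations and 1 to 5 with a library left out. Thy1hi against Thy1- cells had 0, with 2 in DESeq2 and 1 with only these populations. HFSCs against Thy1hi cells had 5, with 1 without a filter, 3 after rescaling and 2 to 5 with a library left out. HFSCs against Thy1- cells had 0, and 0 to 1 with a library left out. The share of all genes called changed as well. Without a filter it was 10.2% between DETCs and Thy1hi cells, 10.7% between DETCs and HFSCs and 2.62% between HFSCs and Thy1hi cells. With the filter these shares were 36.6%, 39.7% and 13.4%. No filter adds genes to the adjustment, and leaving out a library or population lowers the number of libraries. The cause of the other changes was not tested. Of 153 recomputed counts, 128 stayed at or within 1.5 times the value given. These include counts of 0 that stayed at 0, as between YFP+ and Thy1hi cells, so the total does not measure how stable the other counts were.

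With the replicate block in a fit of only the populations compared, 7 members were called between DETCs and Thy1hi cells, 6 between DETCs and Thy1- cells and 8 between Thy1hi and Thy1- cells, where 42.4%, 40.9% and 6.61% of all genes tested were called. The count moved by no more than 1.5 times in the other comparisons. In the comparisons of DETCs with Thy1hi and with Thy1- cells the libraries share only a number.

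All 10 members kept a lower value in Thy1hi than in Thy1- cells in every alternative run, except that Skint2 has no value under the filter on a mean of 50. Between HFSCs and Thy1- cells the split of the members above and below 0 changed with the processing and with single libraries, as given above. Among the other differences given, signs turned in the following small ones. Skint9 between DETCs and Thy1- cells had 0.022 with the replicate block. Between HFSCs and Thy1hi cells, Skint8 had -0.027 after rescaling, -0.15 after quantile normalization and -0.30 to 0.42 with a library left out, and Skint1 had 0.031 with edgeR, 0.0022 with DESeq2 and -0.22 to 0.13 with a library left out. Between YFP+ and Thy1hi cells, Skint7 had -0.26 to 0.037 and Skint1 -0.019 to 0.17 with a library left out. Rescaling to the same total moved the median of all genes from -0.018 to -0.139 between Thy1hi and Thy1- cells and from -0.091 to -0.271 between DETCs and Thy1- cells. The calls over all genes between DETCs and Thy1- cells went from 3250 higher and 2621 lower to 2445 and 3152 after rescaling and 2813 and 3812 after quantile normalization, those between DETCs and HFSCs from 3644 and 3189 to 3024 and 3973 after quantile normalization, and those between HFSCs and Thy1hi cells from 1180 and 1120 to 753 and 1204 after rescaling. Depth limited Skint2, with at most 54 reads in a library.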
